A study of Mus musculus with 598 samples.

Results

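The cells described here are 50 wild type cells of the mouse embryo at E7.25 (days of gestation) with the highest combined level of Etv2, Kdr, Tal1 and Lmo2. They are 14.7% of the wild type cells at that stage and 50 of the 598 cells in all. They were chosen by a score, the mean over those 4 genes of log2(CPM + 1), where CPM is a gene's reads scaled to a total of 1000000 reads on genes in each cell. The 25 cells with the highest score were taken in each of 2 sets of libraries, 14.5% of the E7.25 cells of set 1 and 14.9% of those of set 2, and are set against all other E7.25 cells of their set. The levels of the 4 genes themselves are therefore a description of how the cells were chosen and support nothing.

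Every cell of the series came from a mouse gastrula, was sorted for a GFP reporter of Mesp1, and was sequenced as 1 library. Per the labels, 57.02% of the cells were wild type at E7.25, 28.8% were wild type at E6.75, and 85 were knockout cells collected at E6.75. The labels do not name the gene targeted in the knockout or the embryos the cells came from, so all cells of a group in a set count as 1 sample, and no test between conditions was possible. The protocol text in the labels speaks of adult bone marrow, which does not match embryonic cells. The reporter also limits the model: cells without its GFP were not collected.

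Etv2 is an ETS-family transcription factor needed for the blood and endothelial lineages. Kdr encodes the main receptor for vascular endothelial growth factor (VEGF), Tal1 a bHLH factor required for blood formation, and Lmo2 a bridging protein that joins Tal1 to GATA factors. In the gastrulating mouse embryo, Mesp1-expressing mesoderm leaves the primitive streak, and part of it moves into the extraembryonic region, where the yolk sac forms the first blood and vessels; progenitors of both are known to pass through a stage with Kdr and Etv2, before Tal1 and Gata2 come on.

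On build mm10, Etv2 lies at 30633616 to 30635852 on the minus strand of chromosome 7, Kdr at 75932827 to 75978458 on the minus strand of chromosome 5, Tal1 at 115056426 to 115071755 on the plus strand of chromosome 4, and Lmo2 at 103957986 to 103981878 on the plus strand of chromosome 2. The promoter of Tal1 is shown because the high-scoring cells are divided below by their level of Tal1. Its RefSeq window (GRCm38.p6, chr4:115056176-115056475, plus strand) holds 1 copy of AGATAA, a motif of the GATA factors, upstream of the start on the opposite strand, where it reads as the stretch in capitals.
Tal1: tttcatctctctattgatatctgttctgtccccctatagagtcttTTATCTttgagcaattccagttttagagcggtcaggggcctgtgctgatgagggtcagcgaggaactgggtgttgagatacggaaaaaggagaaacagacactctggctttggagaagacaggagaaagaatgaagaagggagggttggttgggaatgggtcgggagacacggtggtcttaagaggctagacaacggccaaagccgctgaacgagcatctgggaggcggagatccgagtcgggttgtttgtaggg

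The libraries of E7.25 held 112131 to 14159574 reads on genes. The 2 sets were told apart by reads in at least 5 of 8 marker genes: every cell of set 1 had all 8, and no cell of set 2 had more than 4. What the sets stand for is not given in the sources used here, so each comparison was made within a set. The median depth was 758150 reads in the high-scoring cells and 824360 in the other cells of set 1, and 2018800 against 2273400 in set 2. After each cell was thinned to 100000 reads, the median number of genes with a read was 7005 against 7089 in set 1 and 8308 against 8254 in set 2. A cell was counted as having Y-linked reads, here and below, where 3 Y-linked genes together held more than 3 CPM. By that rule Y-linked reads were found in 8 of the 25 high-scoring cells of set 1 (32%, exact Clopper-Pearson 95% interval 14.95 to 53.5%) and in 87 of the other cells (58.8%, 50.4 to 66.8%), and in no cell of set 2 at this stage. Intervals here and below cover counting error only, since PCR copies were counted without molecular identifiers.

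The score fell off steeply over the first cells and then formed a slope with no gap at the 25th cell. In set 1 the high-scoring cells ran from 3.45 to 8.55 with a median of 4.54, and in set 2 from 3.67 to 8.48 with a median of 4.15. The last cells inside had scores of 3.60 and 3.45 in set 1 and 3.69 and 3.67 in set 2, and the first cells outside had 3.43 and 3.40, and 3.62 and 3.62. Within 0.25 of the lowest score chosen lay 10 cells of set 1, of which 3 were chosen, and 17 cells of set 2, of which 8 were chosen. A score of 5 or more was reached by 10 cells of set 1 and 5 of set 2, and a score of 8 or more by 4 and 2. The high-scoring cells are thus a range of a continuous score, with a small group of cells well above the rest.

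**Figure D1:**
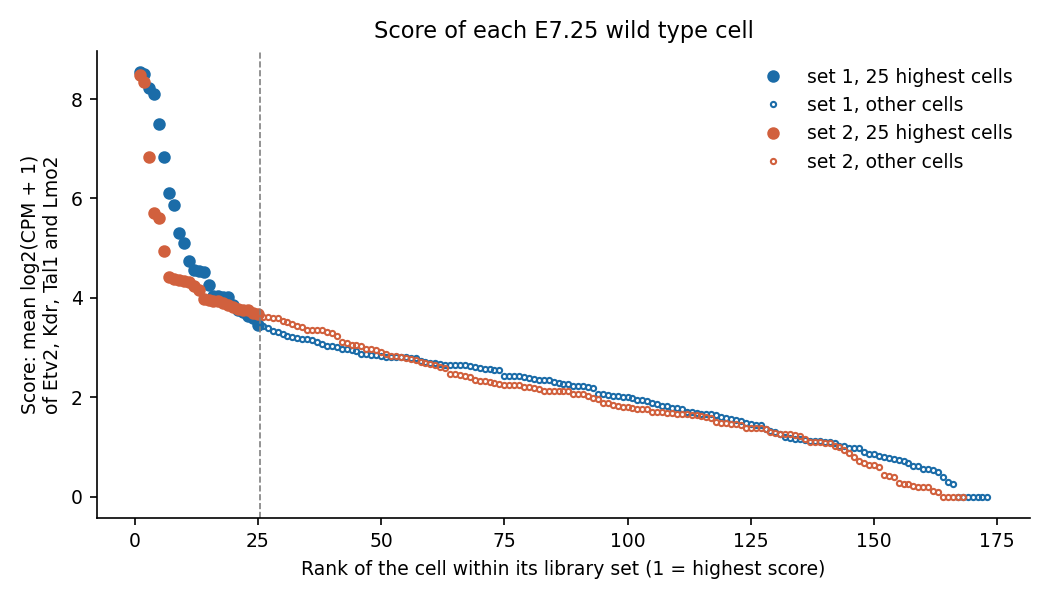
Score of each E7.25 wild type cell, the mean log2(CPM + 1) of Etv2, Kdr, Tal1 and Lmo2 (y axis), against the rank of the cell in its library set (x axis). Filled points are the 25 highest cells of each set, open points the other cells, and the dashed line lies after the 25th cell; 4 cells of set 1 and 2 of set 2 lie above 8, and no gap separates the 25th cell from the next.

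Kdr was the gene the high-scoring cells shared most evenly. Its level ran from 36.4 to 1236 CPM in the high-scoring cells of set 1 with a median of 283.9, and from 26.9 to 1525 CPM in set 2 with a median of 290. In the other cells the median was 19.8 CPM in set 1 and 8.31 in set 2, but single cells reached 921 and 780 CPM, so the groups overlapped.

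Etv2 varied over a wider span. The high-scoring cells held 6.85 to 1605 CPM with a median of 98.8 in set 1, and 4.18 to 1260 CPM with a median of 43.4 in set 2, against medians of 3.55 and 4.12 CPM in the other cells. At least 100 CPM was reached by 12 and 8 high-scoring cells, and by 0 and 2 of the other cells.

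Lmo2 was low or absent in many of the high-scoring cells. It ran from 0 to 338.8 CPM with a median of 5.25 in the high-scoring cells of set 1, and from 0 to 177.6 CPM with a median of 12.9 in set 2. The other cells had a median of 0 in both sets, yet 16.2% of them in set 1 (10.7 to 23.2%) and 23.8% in set 2 (17.1 to 31.6%) held at least 10 CPM, with a highest level of 362 CPM in set 2.

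Reads of Tal1 were found in 17 of 25 high-scoring cells of set 1 and 6 of 25 of set 2, and in 12.8% and 6.29% of the other cells, but mostly at low levels. At least 10 CPM was found in 9 of 25 high-scoring cells of set 1 and 4 of 25 of set 2, and in 0 other cells of either set, which allows a share of up to 2.03% and 2.10% there by the limit of 3 cells set for a count of 0. Tal1 is part of the score, so cells high in it tended to be chosen. That count and its limit therefore describe the choice and support nothing about the cells at this stage. The median was 2.88 CPM in the high-scoring cells of set 1 and 0 in those of set 2, and the highest levels were 252.6 and 245.5 CPM. The highest level among the other cells was 8.17 CPM in set 1 and 0.82 in set 2.

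The 4 genes were seldom all high in the same cell. All 4 reached 10 CPM in 5 of 25 high-scoring cells of set 1 (20.0%, 6.83 to 40.7%) and 3 of 25 of set 2 (12.0%, 2.55 to 31.2%), and in none of the other cells of either set. The rule fixes the last point in set 1, since 4 genes at 10 CPM give a score above the lowest one chosen (3.45). In set 2 the lowest score chosen (3.67) leaves little room for such a cell, so the contrast describes the choice alone. Etv2 and Kdr without Tal1 or Lmo2 was the more frequent pattern, with 11 and 10 high-scoring cells, and 18.2% (12.4 to 25.4%) and 25.2% (18.3 to 33.1%) of the other cells also had it. Kdr and Lmo2 at 10 CPM without Tal1 was found in 4 and 11 high-scoring cells. Whether the sets differ in these patterns was not tested.

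The label for these cells is haemato-endothelial progenitor, and several genes that define formed endothelium were read in few of them. Reads of Cdh5, the junction cadherin of endothelium, were found in 1 of 25 high-scoring cells in each set, reads of Pecam1 in 1 and 4, and reads of Tie1, a receptor of endothelial cells, in 0 and 1. The ETS factor Fli1 was read in 3 and 3 cells. Tek, the angiopoietin receptor, was read in 7 cells of set 1 and 1 of set 2, and Sox7, an endothelial SOX factor, also in 7 and 1. These 2 genes were rarer still outside the high-scoring cells. At least 10 CPM of Tek was found in 0 other cells of either set, and of Sox7 in 1 of set 1 and 0 of set 2. Their summed log2 ratios in set 1 were 5.30 and 4.23, and 3.20 and 2.54 without the deepest high-scoring cell. Of the 26 endothelial adhesion and junction genes listed, 2 (Cldn5 and Esm1) had no read in any of the 50 cells. The summed level of that list was 191.4 to 1175 CPM in the high-scoring cells of set 1 against 33.8 to 1299 in the others, and 209.3 to 2028 against 73.1 to 2306 CPM in set 2, so the ranges overlapped throughout.

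The embryonic globins Hbb-bh1, Hbb-y and Hba-x, with Gfi1b, had no read in any of the 50 cells. Reads of Gata1, the erythroid and megakaryocytic GATA factor, were found in 4 cells of set 1 and 1 of set 2, and reads of Itga2b, the integrin subunit CD41, in 7 and 1. The summed level of the blood list ran from 10.9 to 752 CPM in the high-scoring cells of set 1 against 2.39 to 639 in the others, with medians of 224.6 and 78.2 CPM. In set 2 it ran from 0.55 to 515 against 0 to 443 CPM, with medians of 134.6 and 88.1 CPM. Of the 7 blood genes abundant enough to be examined, none was called in either direction by the 2-fold rule given below. Their median log2 ratio was 0.33. Over all genes examined, 0.559% were called higher and 1.75% lower, so the lack of a call among 7 genes says little. On the reads and summed levels above, the cells are named below by their chosen genes, as high-scoring cells, and not by a lineage.

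Among the adult bone marrow genes, which the protocol text calls for, none of the 16 listed reached the minimum level for comparison. Their summed level in the high-scoring cells of set 1 had a median of 0.57 CPM and a highest value of 162.9 CPM. The other cells of set 1 had a higher median of 4.52 CPM and reached 198.6 CPM. In set 2 both medians were 0, with highest values of 12.5 CPM in the high-scoring and 60.2 CPM in the other cells. The neutrophil granule genes Mpo, Ctsg and Prtn3 were read in 8, 7 and 7 high-scoring cells of set 1 and in 1, 0 and 1 of set 2. Counts for the other cells are not given, so whether these reads mark the high-scoring cells cannot be told here. The part of the bone marrow genes in the results was not tested.

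**Figure D2:**
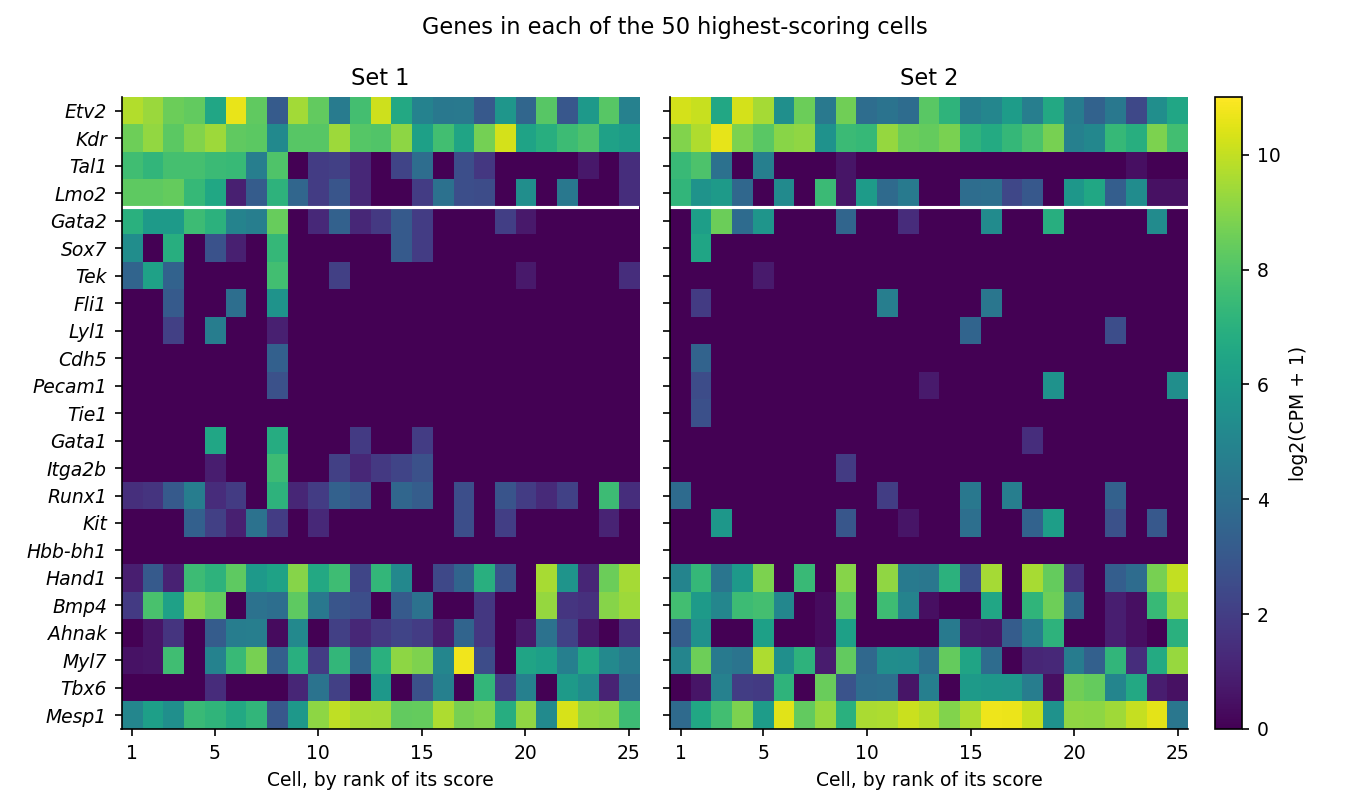
Level of 23 genes as log2(CPM + 1) (color, from 0 to 11) in each of the 25 highest cells of set 1 and set 2, ordered by the rank of the score along the x axis. The first 4 rows, above the white line, are the genes of the score. Tal1 and Gata2 are present together in the first 8 cells of set 1, while the first cell of set 2 has 174.97 CPM of Tal1 and no Gata2. Hbb-bh1 is at 0 throughout, and Cdh5 has a read in 1 cell of each set. Mesp1 is low in most of the leftmost cells and also in some further right, such as the last cell of set 2 (19.3 CPM).

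The high-scoring cells were then compared with the other cells across 11629 genes, those with at least 2 CPM over all E7.25 cells in each set. Each group's reads were added up, and a gene was called when the summed level differed at least 2-fold in the same direction in both sets (a log2 ratio of CPM + 1 of at least 1). This is a rule of size with no test behind it. Of all genes examined, 65 (0.559%) were called higher in the high-scoring cells and 1.75% lower, with the 4 genes of the score left out. The median log2 ratio over all genes examined was -0.05.

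Gata2, the GATA factor of early blood and endothelial progenitors, had the largest mean log2 ratio of all genes called higher. In the high-scoring cells it ran from 0 to 351 CPM with a median of 2.51 in set 1, and from 0 to 368 CPM with a median of 0 in set 2. In the other cells the median was 0 in both sets and the highest levels were 59.4 and 114.4 CPM. Summed over cells, it stood at 89.2 CPM (exact Poisson 95% interval 85.5 to 93.03) against 1.57 CPM (1.38 to 1.77) in set 1 (log2 ratio 5.14), and at 37 against 6.07 CPM in set 2 (log2 ratio 2.43). A level of at least 10 CPM was reached by 8 of 25 high-scoring cells in each set, against 5.41% (2.36 to 10.4%) and 13.3% (8.19 to 19.97%) of the other cells. Most high-scoring cells thus had little or no Gata2. The gene lies at 88193891 to 88207032 on the plus strand of chromosome 6.

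A single library carried much of this in set 1. The cell with the 8th highest score was the deepest of the high-scoring cells of set 1, with 4097338 reads or 16.6% of their reads, and it held 65.4% of their Gata2 reads. It had low Etv2 (8.05 CPM) and Kdr (36.4 CPM), and 252.6 CPM of Tal1, 187.4 of Itga2b, 136.9 of Runx1, 110 of Gata1, 201.6 of Tek and 161.3 of Sox7. Without it, the summed Gata2 level of set 1 was 37.1 CPM and the log2 ratio 3.89. Itga2b kept no excess in set 1 without that cell (log2 ratio 3.62 with it and -0.98 without), and the log2 ratio of Gata1 went from 3.38 to 1.51. In set 2 Gata1 was lower in the high-scoring cells, at 0.08 against 6.09 CPM.

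Among the haemato-endothelial transcription factors, 2 of the 10 examined were called higher and 1 lower, and the list's median log2 ratio was 0.13. Besides Gata2, the ETS factor Elk3 was called higher (14.2 against 4.28 CPM in set 1 and 8.01 against 2.64 in set 2), but the log2 ratio of set 1 was 0.16 without the deepest cell. Ets1 stood at 47.6 against 16.1 CPM in set 1 and 27.4 against 14.1 in set 2, which did not reach 2-fold in set 2. Sox17, a SOX factor of endoderm and arterial endothelium, was the one called lower.

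Of the 13 endothelial receptors examined, 2 were called higher and none lower, with a median log2 ratio of 0.86. Eng, an endothelial co-receptor of the TGF-beta family, had log2 ratios of 2.22 (40 against 7.83 CPM in set 1) and 2.61 (26.2 against 3.45 CPM in set 2). It was read after thinning in 11 and 10 of 25 high-scoring cells, against 11.5% and 14.7% of the other cells. Nrp2, a co-receptor for VEGF and semaphorins, had log2 ratios of 1.35 and 2.09. Its level in set 2 had a median of 77.6 CPM in the high-scoring cells and 0.49 in the others, while in set 1 the medians were 2.83 and 0.71 CPM. The other VEGF receptor, Flt1, did not stand out: its medians were 6.49 against 3.88 CPM in set 1 and 3.59 against 10.96 in set 2. The list's median depended on the deepest cell of set 1, and was 0.20 without it.

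Of the 9 endothelial adhesion and junction genes examined, 1 was called higher and none lower, with a median of 0.81. That gene was Podxl, a sialomucin of the endothelial and epithelial surface, with 76.8 against 10.2 CPM in set 1 and 60.1 against 20.0 in set 2. The deepest cell held 72.1% of its set 1 reads, and the log2 ratio of set 1 went from 2.79 to 1.25 without it. Rhoj, a small GTPase of endothelial cells, reached 3.66 in set 1 and 0.52 in set 2 on the log2 scale. The 5 examined genes of VEGF ligands and signalling had a median of -0.05 and no call.

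The extraembryonic mesoderm list had a median of 0.82 over 15 genes, with 1 called higher and 1 lower. Tbx3, a T-box factor of extraembryonic and early heart mesoderm, had the largest difference in mean log2 level per cell among the genes named here. Its median was 33.3 CPM in the high-scoring cells and 0 in the others of set 1, and 160 against 0.59 CPM in set 2, and the highest other cells (442 and 1096 CPM) exceeded the highest chosen ones (403 and 1063 CPM). Its summed level was 70.6 against 20.1 CPM in set 1 and 258.7 against 78.4 in set 2. Hand1, a bHLH factor of the same mesoderm, had medians of 58.3 against 2.35 CPM in set 1 and 30 against 0.68 in set 2, but summed log2 ratios of 0.36 and 1.57, so it missed the call. The growth factor Bmp4 had summed log2 ratios of 0.96 and 2.25. Hand1 is also on the list of trophoblast genes, where Elf5, Tpbpa and Prl3d1 had no read in any of the 50 cells and Gata3 was called higher (53.9 against 19.3 and 20.0 against 4.73 CPM).

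Imprinted growth genes gave 3 calls higher among 10 examined, none lower, and a median of 0.76. H19, a maternally expressed long RNA, had medians of 79.7 against 10 CPM in set 1 and 69.8 against 20.0 in set 2. The paternally expressed growth factor Igf2, its neighbour on chromosome 7, had medians of 35.6 against 2.58 and 33.1 against 11.9 CPM. Their summed log2 ratios were 1.93 and 2.06 for H19 and 1.82 and 1.88 for Igf2. Mest, another paternally expressed gene, stood at 1232 against 560 CPM in set 1 and 897 against 403 in set 2, and its log2 ratio in set 1 was 0.83 without the deepest cell.

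In the 4 lists of signalling pathways, calls went in both directions for FGF and WNT (14 genes examined in each). They were only higher for BMP and only lower for Notch. Over all genes examined, 0.559% were called higher and 1.75% lower. Bmp2, a ligand of the BMP pathway, had summed log2 ratios of 1.63 and 2.60, with medians of 14.8 and 14.3 CPM in the high-scoring cells and 0 in the others of both sets. Smad6, an inhibitor of the same pathway, had log2 ratios of 1.12 and 1.22, and these were the 2 calls among 15 BMP genes. In the FGF pathway, Fgf10 was called higher (1.14 and 1.46) and Fgf4 lower (-1.56 and -3.55) among 14 genes, and Fgf10 stood at 0.67 in set 1 without the deepest cell. In the WNT pathway, Rspo3, a secreted enhancer of WNT signalling, was higher (197.4 against 72.3 and 139.1 against 58.6 CPM). Wnt3a and the secreted antagonist Sfrp1 were called lower, with Sfrp1 at 7.79 against 61.4 and 47.3 against 147.2 CPM. In the Notch pathway, the ligand Jag1 (12.6 against 116.1 and 33 against 87.5 CPM) and the glycosyltransferase gene Lfng were called lower, and none of 11 genes higher.

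The other genes named among those higher had less pointed roles in this tissue. Dok4, a docking protein for receptor tyrosine kinases, had log2 ratios of 1.11 and 2.57, and Lrrn4, a leucine-rich repeat membrane protein, 2.05 and 2.01. Ggta1, a galactosyltransferase, had 2.96 and 2.08, and Hsd11b2, which inactivates glucocorticoids, 2.07 and 1.49. The scaffold gene Dlg5 had 1.27 and 1.06, and Spats2l 1.60 and 1.04. Leaving out the deepest cell kept 14 of the 15 genes named as higher at 2-fold in set 1, with Fgf10 the exception, and 14 of the 15 named as lower, with the WNT receptor gene Fzd3 the exception (-0.90). Without that cell the set 1 log2 ratio was 2.23 for Ggta1, 1.27 for Eng and 1.48 for Hsd11b2, and went from -2.00 to -3.55 for Prickle1.

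**Figure D3:**
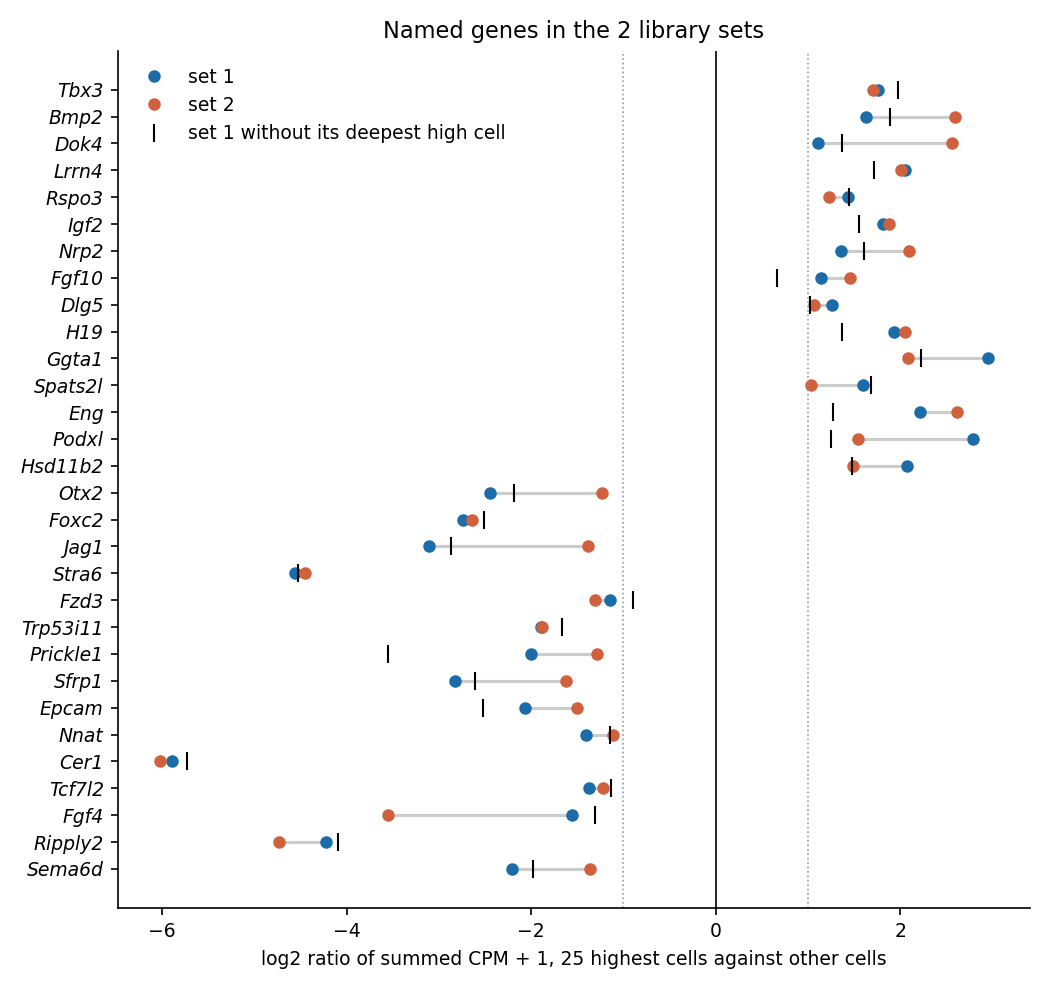
log2 ratio of summed CPM + 1, the 25 highest cells against the other cells (x axis), of the 15 genes named as higher and the 15 named as lower (y axis), in set 1 (blue) and set 2 (orange). Black ticks give set 1 without its deepest high-scoring cell, and dotted lines mark a 2-fold difference; Prickle1, Podxl and Eng are among those that move most when that cell is left out.

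Part of the epithelial, endoderm, epiblast and paraxial mesoderm lists was called lower. Of the 9 epithelial genes examined, 6 were called lower and none higher, with a median log2 ratio of -1.78. Cldn6, a tight junction claudin, stood at 0.93 against 66.5 CPM in set 1 and 0.37 against 95.6 in set 2. Cdh1, the epithelial cadherin, stood at 0.20 against 16.4 and 8.96 against 47.1 CPM. These gaps came from a part of the other cells: Cldn6 was at 0 in the median cell of every group, and 19.6% and 18.9% of the other cells held at least 10 CPM, up to 2278 and 2655 CPM. Epcam was more widespread, with 23.2 against 99.95 CPM in set 1 and 38 against 109.4 in set 2.

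The definitive endoderm and axial list had the lowest median, -2.57 over 7 genes, with Cer1, Chrd and Sox17 called lower. Cer1, a secreted inhibitor of Nodal, BMP and WNT, had log2 ratios of -5.90 and -6.03. Its highest level in a high-scoring cell was 16.7 CPM in set 1 and 14.6 in set 2. The median other cell had only 1.17 and 0.88 CPM, and the highest had 4395 and 4663 CPM. The summed level of the whole list reached 108.6 and 96.1 CPM in the high-scoring cells and 9269 and 5569 CPM in the others.

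Among epiblast and pluripotency genes, 5 of 14 were called lower and none higher, with a median of -1.16. Otx2, a homeobox factor of epiblast and anterior tissue, was lower in most cells rather than in a few: its median was 2.99 against 107.4 CPM in set 1 and 8.83 against 126.5 in set 2. Paraxial and presomitic mesoderm genes had 4 of 12 called lower, none higher and a median of -1.30. Foxc2, a forkhead factor of paraxial mesoderm, had medians of 1.41 against 5.801 and 0.84 against 57.9 CPM, and the somite segmentation gene Ripply2 had summed log2 ratios of -4.22 and -4.73. Stra6, the retinol transporter, had -4.56 and -4.45. The planar polarity gene Prickle1 had -2.00 and -1.29.

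Several lists stayed near the median of all genes. Over 18 genes each, the median was -0.14 in the S phase list and 0.09 in the G2/M list, and the glycolysis and hypoxia list -0.07 over 14 genes and the p53 targets -0.13 over 10, with no call in any of them. The cardiac progenitor list lay higher than these, with a median of 0.46 over 10 genes (0.16 in set 1 and 0.69 in set 2). Its 1 call, Actc1, was lower and so went against the list's median. Myl7, a myosin light chain of early heart cells, had medians of 35.6 against 45.6 CPM in set 1 and 31.6 against 26.7 in set 2. The groups were thus alike in the middle of their range for Myl7, which does not stand for the list as a whole. Mesp1 itself, the gene of the reporter, was summed at 341.2 against 560 CPM in set 1 and 645 against 512 in set 2, with log2 ratios of opposite sign (-0.71 and 0.33).

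**Figure D4:**
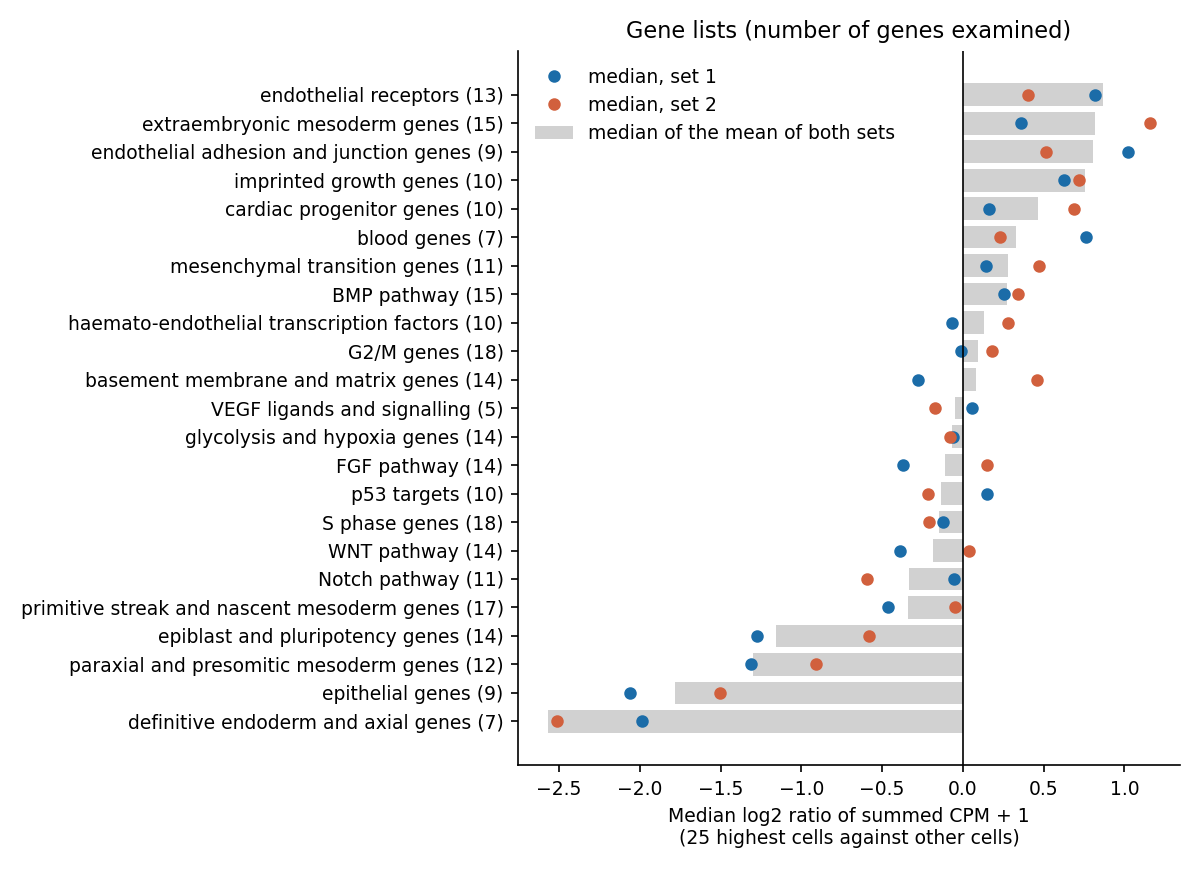
Median log2 ratio of summed CPM + 1, the 25 highest cells against the other cells (x axis), for the 23 gene lists with at least 5 genes examined (y axis, number of genes in brackets). Gray bars give the median of the mean of both sets, blue and orange points the medians in set 1 and set 2. By the gray bars, endothelial receptors lie highest and definitive endoderm and axial genes lowest. In set 1 alone, adhesion and junction genes lie highest (1.02) and epithelial genes lowest (-2.06). In set 2 alone, extraembryonic mesoderm lies highest (1.16) and definitive endoderm and axial genes lowest (-2.51).

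The high-scoring cells were not alike among themselves, and they are described here by their level of Tal1; divisions by other genes were not compared. The 13 cells with at least 10 CPM of Tal1 were ranks 1 to 8 and 15 in set 1 and ranks 1, 2, 3 and 5 in set 2. Their median depth was 1074497 reads against 680823 in the other high-scoring cells of set 1, and 2596812 against 1865041 in set 2. Since Tal1 is part of the score, these cells also have the higher scores (a median of 7.50 against 4.03 and of 7.58 against 3.95).

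Gata2 followed Tal1 among the high-scoring cells. In set 1 its level was 2.83 to 351 CPM with a median of 63.1 in the 9 Tal1-positive cells, and 0 to 9.74 CPM with a median of 0 in the 16 others, so that 8 of 9 and 0 of 16 held at least 10 CPM. In set 2 it was 0 to 368 CPM with a median of 61.3 in the 4 Tal1-positive cells and 0 to 118.1 CPM with a median of 0 in the 21 others, where 5 of the 21 held at least 10 CPM. Over the 50 cells, each centred on its set, log levels of Tal1 and Gata2 had a Pearson correlation of 0.70, given as a description since the cells share library sets and depth. The correlation was 0.92 in set 1 and 0.42 in set 2.

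Mesp1 went the other way. Its median was 97.7 CPM in the Tal1-positive cells of set 1 (6.83 to 333.6) and 560 CPM in the Tal1-negative ones (37.4 to 1279). In set 2 the medians were 79.8 CPM (12.8 to 205.4) and 776 CPM (19.3 to 1662). The ranges overlapped, with the highest Tal1-positive cell below the median Tal1-negative cell in both sets. The other cells had medians of 511 and 392 CPM. The correlation of Tal1 with Mesp1 over the 50 cells was -0.60, and close to that in each set (-0.61 and -0.62). It was not particular to Tal1: for Etv2 with Mesp1 it was -0.46 (-0.30 in set 1 and -0.62 in set 2). For Kdr and Lmo2 it was -0.11 and -0.17. The opposite signs of the Mesp1 comparison between sets stand beside different shares of Tal1-positive cells, 9 of 25 and 4 of 25, and the part of that difference was not tested.

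Some genes of nascent and paraxial mesoderm, picked for description, were also lower in the median Tal1-positive cell. Dll3, a Notch ligand of the primitive streak and presomitic mesoderm, had medians of 13 CPM in the Tal1-positive and 397 in the Tal1-negative cells of set 1, and 50.1 and 422 CPM in set 2. Lefty2, a secreted Nodal inhibitor of nascent mesoderm, had 13.2 against 196.5 CPM and 2.02 against 19.2 CPM. Tbx6 had medians of 0 against 8.57 and 1.57 against 24.4 CPM. Over the high-scoring cells its correlation was -0.45 with Tal1, -0.54 with Etv2, -0.42 with Kdr and 0.14 with Lmo2. Pdgfra, a mesoderm receptor, had 3.29 against 158.8 CPM in set 1 and 65.4 against 168.4 in set 2. T, the pan-streak factor Brachyury, had no common direction: its medians were 82.2 against 50.2 CPM in set 1 and 87 against 136.01 in set 2. Hand1 medians were 58.3 against 74.8 and 95 against 22 CPM, again in opposite directions.

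The next genes were picked from those that differed most between the Tal1-positive and Tal1-negative cells, so they support nothing about that division. Exoc3l, a gene related to an exocyst subunit, was summed at 420 CPM in the Tal1-positive and 1.39 in the Tal1-negative cells of set 1, and at 92.7 and 4.68 CPM in set 2. The phosphatase gene Dusp3 stood at 50.6 against 0.98 and 59 against 7.29 CPM, and Rhoj at 42.8 against 0 and 32.9 against 1.08 CPM. In the other direction, Mesp2, the paralog beside Mesp1, stood at 1.77 against 144.2 CPM in set 1 and 0.10 against 105.04 in set 2. Pcdh8, a protocadherin of paraxial mesoderm, stood at 0.48 against 31.8 and 0.10 against 92.9 CPM, and Frzb, a secreted WNT antagonist, at 9.81 against 242.5 and 12.3 against 232.7 CPM.

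Endothelial markers were found in few cells. Sox7 reached 10 CPM in 3 of 9 Tal1-positive cells of set 1 and 1 of 4 of set 2, and in none of the 16 and 21 Tal1-negative cells. Tek reached that level in 3 of 9 in set 1 and in no cell of set 2, and 3 Tal1-negative cells of set 1 held up to 3.25 CPM of it. Pecam1 was not confined to Tal1-positive cells: it was at 5.61 and 4.90 CPM in 1 of them in each set, and at 0.72, 48.1 and 41.8 CPM in 3 Tal1-negative cells of set 2. Fli1 reached it in 2 of 9 in set 1, and in set 2 in none of the 4 Tal1-positive and 2 of the 21 Tal1-negative cells. The reads of Cdh5 lay in 1 Tal1-positive cell of each set: the deepest cell of set 1 (9.27 CPM) and the second-ranked cell of set 2 (10.3 CPM). Hhex, a homeobox factor of blood, endothelial and endoderm cells, reached 10 CPM in 4 of 9 against 0 of 16 in set 1, and in 1 of 4 against 3 of 21 in set 2.

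To see what sets these cells apart from similar mesoderm, the cells outside them with the highest Hand1, Bmp4, Ahnak and Pmp22 (16 in set 1 and 15 in set 2) and with the highest Myl7, Tnnt2, Nkx2-5 and Smarcd3 (16 and 15) were taken as neighbours. Cells high for both scores stayed with the remaining cells. The genes that chose a neighbour are not compared. Most genes named as higher were also high in the neighbours with Hand1 and Bmp4. Of the 15, 11 exceeded the remaining cells at least 2-fold there in both sets, and 1, Ggta1, was at least 2-fold higher in the high-scoring cells than in those neighbours in both sets. Tbx3 stood at 98.5 CPM in these neighbours against 70.6 in the high-scoring cells of set 1, and at 384 against 258.7 in set 2. Rspo3 stood at 192.7 against 197.4 CPM in set 1 and 69.4 against 139.1 in set 2. Kdr, a score gene, was at 173.3 CPM in the neighbours of set 1 and 353 in those of set 2, beside 275.1 and 366 in the high-scoring cells.

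Gata2 was summed at 11.5 CPM in the neighbours with Hand1 and Bmp4 in set 1 and at 10.1 in set 2, against 89.2 (37.1 without the deepest cell) and 37 in the high-scoring cells. Per cell the groups were close, with a mean log2 level of 2.19 against 2.69 in set 1 and of 1.68 against 1.87 in set 2. After thinning, Gata2 was read in 7 of 16 neighbours and 8 of 25 high-scoring cells of set 1, and in 4 of 15 and 8 of 25 of set 2. It was at 0.10 and 4.41 CPM in the neighbours with Myl7, and at 0.34 and 5.75 CPM in the remaining cells. Eng was close in set 1 (35 against 40 CPM) and not in set 2 (2.92 against 26.2 CPM). The lower genes were shared as well: 12 of the 15 were at least 2-fold below the remaining cells in the Hand1 and Bmp4 neighbours in both sets, and none was 2-fold lower still in the high-scoring cells in both sets. Cer1, for example, stood at 4.69 and 1.49 CPM in these neighbours and at 201.1 and 252.5 CPM in the neighbours with Myl7.

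**Figure D5:**
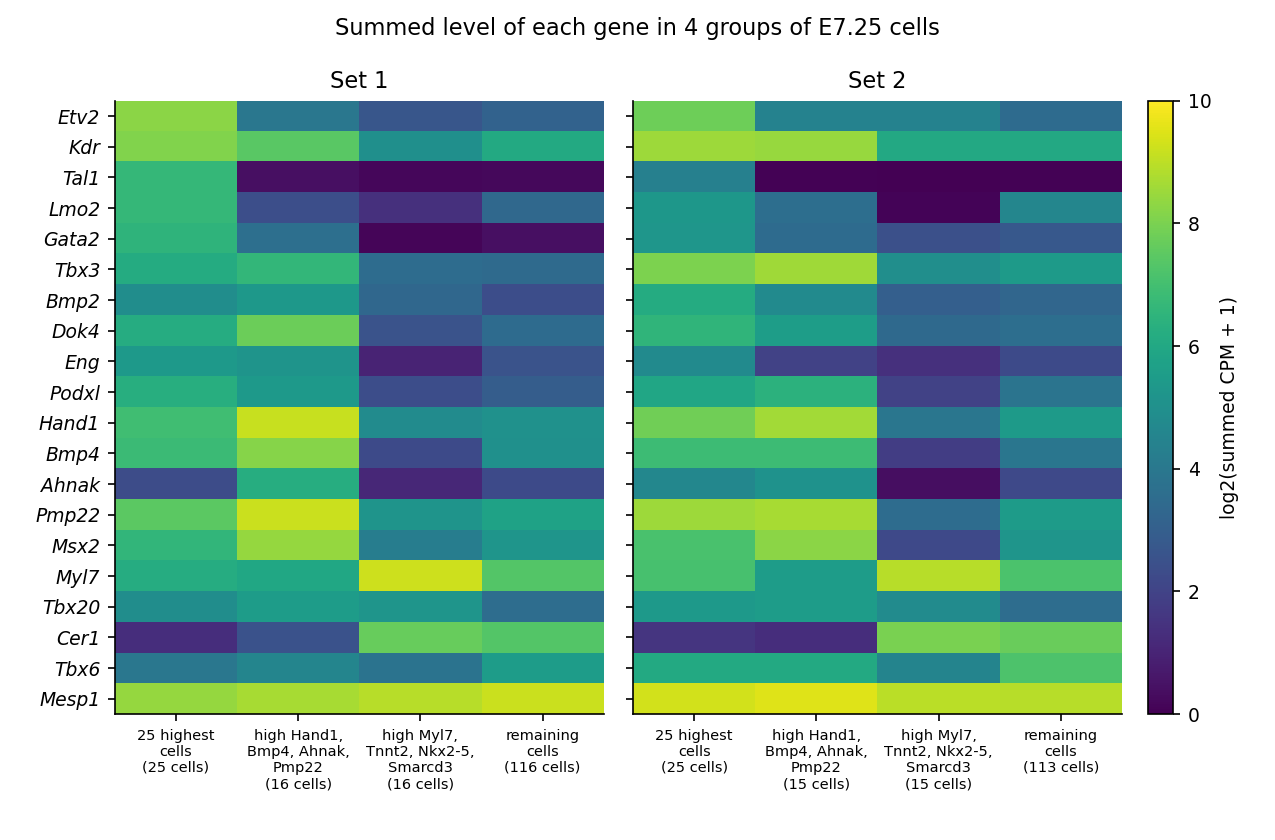
Summed level of 20 genes as log2(CPM + 1) (color, from 0 to 10) in 4 groups of E7.25 cells (x axis, number of cells in brackets), in set 1 and set 2. Tal1 is a gene of the score, so its high level in the 25 highest cells describes how they were chosen. Summed Gata2 is also highest there, but in set 1 the deepest cell holds 65.4% of its reads. Per cell, Gata2 was close to its level in the cells high in Hand1, Bmp4, Ahnak and Pmp22. Tbx3, Dok4, Podxl and low Cer1 are shared with those cells.

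Cells past the same score were also present at the earlier stage. At E6.75, 21 of 83 wild type cells of set 1 (25.3%, 16.4 to 36%) and 13 of 89 of set 2 (14.6%, 8.01 to 23.7%) had a score at or above that of the 25th cell of E7.25. At E7.25 the same scores mark 14.5% and 14.9% of the cells by construction. Of the 85 knockout cells, all in set 1, 1 passed (1.18%, 0.030 to 6.38%), with 697 CPM of Etv2, 148.7 of Kdr, 15.7 of Mesp1 and no read of Tal1, Lmo2 or Gata2. The knockout cells come with no embryo or litter named, so genotype and preparation cannot be told apart.

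Of the early wild type cells past the score, 19 of 21 and 13 of 13 held at least 10 CPM of Etv2, and all held that much Kdr. Etv2 had a median of 455 CPM in the 21 wild type cells of set 1 (0 to 2391) and 556 CPM in the 13 of set 2 (51.7 to 1923), and Kdr had medians of 238.7 and 341.2 CPM. Tal1 reached 10 CPM in 3 of 21 and 2 of 13 of them, Gata2 in 3 and 8, and Hand1 in 20 and 11. Mesp1 medians were 335.4 and 270 CPM.

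The promoters of the genes called higher were searched on both strands for CCGGAAGT (an ETS motif), AACAGGAA (the ETS part of a combined FOX:ETS motif) and AGATAA (a motif of Gata1, Gata2 and their relatives). RefSeq windows from 250 bases before to 50 after the start were found for 40 of the 65 genes, with 55 windows. None of them held CCGGAAGT or AACAGGAA, against 8.93% and 2.10% of the 10901 windows of the genes examined, and 3 (5.46%) held AGATAA, against 5.83%. These letters are short stand-ins for the motifs, and a window without them says nothing of the factor. The Tal1 window shown above is 1 of 4 windows matched to 3 of the score genes, and the only one of them with a match.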

How the data were processed

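Single sorted mouse cells were sequenced as 1 plate-based, full-length Nextera XT library each on an Illumina HiSeq, per the labels. The deposited table holds unnormalized counts of reads on each gene, a column for every cell. The authors aligned reads with GSNAP to mm10 and counted them with HTSeq 0.5.3p3, per the submitters' processing notes; for the annotation release, the strand setting and any filter on cells, the parameters were not given in the sources used here. Without a known strand setting, reads of overlapping genes cannot be told apart. Depth ran from 101895 to 14159574 reads on genes per cell, so a gene at a few CPM is often at 0 reads in the shallowest cells. No columns were identical, and no cell was left out or checked for doublets.

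Symbols and positions came from GENCODE M21 (GRCm38) for 40254 of 40912 identifiers. The cells were grouped by library set and score as given in the report, and counts were summed per group with Python 3.11.15, numpy 2.4.6, pandas 2.3.3 and scipy 1.17.1. Ratios are log2 of CPM + 1, so they understate the difference of low genes. Genes needed at least 2 CPM over all E7.25 cells in each set, and 95 genes that separate the sets were left out. Since the labels name no embryo, each group in a set is 1 sample and no p-value was computed.

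Named per direction were the 15 called genes with the largest difference in mean log2(CPM + 1) per cell, averaged over the sets, with at least 20 CPM and a read in at least 40% of the cells of the higher group in each set. Predicted gene models, pseudogenes and mitochondrial and sex-linked marker genes stayed out. Up to 4 members of each of 26 gene lists with at least 5 CPM, and Mesp1, were added to these. The cells, the rule and the lists were chosen with earlier results of these data known. Alternatives were other summaries and pseudocounts, thinning to 100000 reads, TMM factors (edgeR 4.0.16) and DESeq2 1.42.0 size factors under R 4.3.3, other numbers of cells, other filters, and the score without each gene. The ratio code was tested on simulated data.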

Additional observations from a re-analysis of the deposited data

How the results depend on the processing

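The share of examined genes called higher (0.559%) became 0.163% with 10 CPM added, 0.877% with the 15 highest cells, 0.344%, 0.353% and 1.07% with the score without Etv2, Kdr and Lmo2, 0.851% without the next 25 cells by score, 4.39% and 2.12% in set 1 or set 2 alone, 0.268% with a 10 CPM minimum, 0.267% with no minimum, and 2.98% and 0.146% at log2 ratios of 0.5 and 1.5. The share called lower (1.75%) became 0.413% on mean log2 levels per cell (0.722% higher there), 0.215% with 10 CPM added, 2.74% and 0.869% with 15 and 40 cells, 0.765% without Kdr in the score, 11.8% and 3.97% in set 1 or set 2 alone, 0.653% and 0.784% with a 10 CPM or no minimum, and 5.35% and 0.662% at 0.5 and 1.5. Of the 50 cells, 36, 34, 48 and 36 stayed when Etv2, Kdr, Tal1 or Lmo2 was left out of the score.

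Among list medians, endothelial receptors (0.86) went to 0.38 for mean CPM over cells, 0.13 for mean log2 levels, 0.37 thinned, 0.29 with 40 cells, 0.40 without Lmo2 in the score, 0.45 without the 3 deepest cells of each set, 0.40 in set 2 alone, and 1.18 and 0.25 with a 10 CPM or no minimum. The haemato-endothelial factors (0.13) went to 0.38 without Lmo2, the adhesion genes (0.81) to 0.066 with no minimum, and the blood genes (0.33) to 0.76 in set 1 alone. Extraembryonic mesoderm (0.82) went to 1.48 on mean log2 levels and 0.11 without Kdr. Cardiac genes (0.46) went to -0.022 without Etv2 and -0.12 without Kdr. Paraxial genes (-1.30) went to -0.83 with 10 CPM added, -1.75 with 15 cells, -0.80, -0.38 and -2.18 without Etv2, Kdr and Lmo2, and -0.91 in set 2 alone. The mean log2 ratios of Prickle1 (0.37) and Tbx6 (0.43) turned positive without Kdr in the score. The cause of these shifts was not tested. Of 630 alternative values of the 30 named genes, 629 kept their sign. These genes were picked for going the same way in both sets, so a kept sign says little. The size held less well. Over these and a few further genes, 488 of 756 alternative values stayed within the spread between the sets. The rest moved further, and 2 of them reversed.

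Alternatives added after seeing the data were cells with a score of 5 or more, set 1 without its deepest high-scoring cell, and set 1 cells with or without Y-linked reads. With a score of 5 or more, 2.09% of genes were higher and 6.84% lower, the medians were 0.40 for the haemato-endothelial factors, 1.29 for receptors, 1.32 for adhesion genes and -3.45 for paraxial genes, and the median of all genes was -0.13. Receptors stood at 0.20 without the deepest cell and at 0.27 among cells with Y-linked reads, and paraxial genes at -0.88 among cells without them. The median of all genes was -0.05 with TMM factors, as without them, and 0.00 with DESeq2 factors. No paired analysis was possible because the labels tie no cells of different groups to each other and no test was made. Depth limits the reading of Tal1, Gata2 and the endothelial markers in single cells, since 1 read weighs 8.33 CPM in the shallowest high-scoring cell.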

Other observations

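A group of genes outside the lists, chosen after their values were seen, was also higher in the high-scoring cells, by far in set 1 and much less so in set 2. Exoc3l stood at 212.7 CPM against 5.24 in set 1 and 21.8 against 3.73 in set 2, and its set 1 log2 ratio was 5.22 without the deepest cell. The MAP kinase phosphatase gene Dusp2 stood at 62.98 against 2.16 CPM in set 1 and 19.6 against 5.68 in set 2; the deepest cell held 50.2% of its set 1 reads, and the level was 37.6 CPM without it. The nuclear receptor gene Nr4a1, an early response gene, stood at 36.6 against 1.63 and 18.2 against 7.48 CPM. The chemokine receptor gene Ccr7 stood at 41.2 against 2.63 and 12.1 against 5.10 CPM. None of the reads of Nr4a1 and Ccr7 in set 1 came from the deepest cell.

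Runx1, a factor of definitive blood formation, was read in 80% of the high-scoring cells and 88.5% of the other cells of set 1, and in 20% and 26.6% of those of set 2. At least 10 CPM of it was found in 4 high-scoring cells of set 1 and 3 of set 2. Among the far more numerous other cells, 9 of set 1 and 12 of set 2 reached that level. The summed log2 ratio of Runx1 in set 1 was 2.97, and 1.52 without the deepest cell, which held 71.1% of its reads. In set 2 its mean log2 level per cell was 0.97 in the Tal1-positive and 0.69 in the Tal1-negative high-scoring cells, against 0.75 in the other cells.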
